A study of Mus musculus with 6 samples.

Results

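The MYC network was followed in morula-like aggregates, clusters of mouse expanded pluripotent stem cells that model the compacting embryo, through 10 transcription factor genes: the MYC paralogs Myc, Mycn and Mycl, their obligate partner Max, and the MAX-binding antagonists Mxd1, Mxi1, Mxd3, Mxd4, Mnt and Mga. The genes were taken by symbol from the deposited expression table, and all 10 were found among its 18388 genes. RNA-seq was done on 3 libraries of aggregates treated with PFOA (perfluorooctanoic acid, a persistent fluorinated surfactant) and on 3 libraries treated with the vehicle DMSO. All 6 cultures were held at 37 °C under 5% CO2 and 20% O2 in N2B27LCDM and then an induction medium. Strain, dose and exposure time are not given in the labels. Nothing there tells if a group's 3 replicates were separate cultures, so the p-values measure the spread between libraries, which may be technical. The series title names c-MYC in embryo compaction, so the comparison addresses whether PFOA-treated aggregates differ in Myc and in the genes that work with it or against it.

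MYC proteins carry a basic helix-loop-helix leucine zipper and bind DNA only as a dimer with MAX, at the E-box CACGTG, where they recruit histone acetyltransferases and raise the expression of growth genes. MXD proteins and MNT compete for MAX and for the same sites, and bring the SIN3-histone deacetylase corepressor. MGA, which also pairs with MAX and has in addition a T-box domain, is part of the polycomb complex PRC1.6 that silences germline genes in mouse embryonic stem cells. In those cells Myc and Mycn act redundantly, and loss of both leads to a dormant state that resembles diapause.

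The E-box is also the site through which the network can bind its own genes, so the start-site windows of the members were searched for it. The RefSeq promoter table (build GRCm38.p6, 250 bases before to 50 bases after each start) held 11 windows for 9 of the 10 members, all but Myc, whose promoter was not searched here. CACGTG, which reads the same on both strands, was present in 3 of these 11 windows, those of Max, Mnt and Mxd4, against 7.15% of all 32851 windows in the table. The 3 windows are shown 5′ to 3′ on the strand of the gene because they hold the letters that MYC-MAX and MXD-MAX dimers are known to bind; capitals mark the E-box. Coordinates belong to GRCm38.p6, whereas the submitters' processing notes name GRCm39. The windows lie at chr12:76962199-76962498 on the minus strand for Max, chr11:74830674-74830973 on the plus strand for Mnt and chr5:34187661-34187960 on the minus strand for Mxd4.
Max: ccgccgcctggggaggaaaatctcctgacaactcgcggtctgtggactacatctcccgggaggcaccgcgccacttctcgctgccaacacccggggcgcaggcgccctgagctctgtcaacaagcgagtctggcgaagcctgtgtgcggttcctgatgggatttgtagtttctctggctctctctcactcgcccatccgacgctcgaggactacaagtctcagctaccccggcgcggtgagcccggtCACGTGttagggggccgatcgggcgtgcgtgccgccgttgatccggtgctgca
Mnt: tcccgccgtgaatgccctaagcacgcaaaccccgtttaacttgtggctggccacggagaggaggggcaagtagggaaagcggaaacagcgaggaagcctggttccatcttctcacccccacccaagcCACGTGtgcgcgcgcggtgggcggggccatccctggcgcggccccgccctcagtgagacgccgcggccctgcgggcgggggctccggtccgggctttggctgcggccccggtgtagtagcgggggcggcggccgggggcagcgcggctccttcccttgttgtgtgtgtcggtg
Mxd4: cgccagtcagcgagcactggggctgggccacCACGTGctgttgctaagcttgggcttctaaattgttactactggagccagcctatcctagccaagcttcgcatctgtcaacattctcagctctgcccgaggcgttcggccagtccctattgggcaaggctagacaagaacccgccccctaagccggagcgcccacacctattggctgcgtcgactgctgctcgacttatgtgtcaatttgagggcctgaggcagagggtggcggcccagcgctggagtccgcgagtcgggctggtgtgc
The E-box began at base 248 of the Max window, next to the annotated start, at base 128 of the Mnt window and at base 32 of the Mxd4 window, counted from 1 at the 5′ end. These are matches of letters, and no binding was measured.

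The aggregates kept a pluripotent profile in both groups, with small separations between the groups in other summed levels. The values are FPKM, fragments per kilobase of transcript scaled to the mapped fragments of the library, so they compare genes per length, and the depth behind them is unknown. Between 16823 and 16913 genes were above 0 in a library, and the summed FPKM was 585739 to 630644 in PFOA and 641975 to 657239 in DMSO, lower in every PFOA library. Of the 10 pluripotency markers, all 10 had a mean of at least 1 FPKM, led by Dppa5a and Pou5f1, and their summed level was 4032 to 4517 FPKM in PFOA and 4665 to 4880 in DMSO. The fibroblast markers summed to 21.8 to 23.7 FPKM in PFOA and 23.6 to 28.8 in DMSO, with 7 of 10 at a mean of at least 1. Summed primitive endoderm markers (3 of 7 at that level) were 14.98 to 15.6 FPKM in PFOA and 13.4 to 14.3 in DMSO, and neural markers (5 of 6) 33.2 to 34.2 in PFOA and 35.6 to 36.4 in DMSO. The ranges of these last 2 lists and of the pluripotency markers did not overlap. The groups also did not overlap for 27.2% of all genes tested, and these sums carry no test. The part of transcript length, described below, in these sums was not tested. The pluripotency and neural sums were lower in every PFOA library, and the primitive endoderm sum was higher. Their most abundant genes went the same way. Mean FPKM in PFOA and DMSO was 1952 and 2239 for Dppa5a, 24.1 and 27.05 for Tubb3, and 7.66 and 6.28 for Lama1. The other neural markers were all higher in PFOA by mean, as were Zfp42, Esrrb, Tfcp2l1, Klf4 and Tdgf1 of the pluripotency list. Gata4 and Foxa2 of the primitive endoderm list were lower. Trophectoderm markers (6 of 7, most of it Krt8 and Krt18) were 494.6 to 564.0 FPKM in PFOA and 510.4 to 582.5 in DMSO. The 2-cell-like markers (5 of 6) were 51.5 to 53.9 in PFOA and 50.4 to 52.4 in DMSO, and haematopoietic markers (2 of 4, Cd68 and Laptm5) 91.8 to 97.4 in PFOA and 91.9 to 102.1 in DMSO. No marker was at 0 in every library, and the part of other cells in the results was not tested. DMSO 1 and 2 stood apart together: 11 genes were over 2-fold above the other 4 libraries in both, on the FPKM + 1 scale, against at most 1 gene for any other pair of libraries, and none of the 10 members was among them.

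Mycn, not Myc, was the most abundant MYC paralog of the aggregates. Over the 6 libraries Mycn averaged 72.5 FPKM, Myc 25.4 and Mycl 5.27, so Mycn made up 70.3% of the summed MYC paralog level, Myc 24.6% and Mycl 5.11%. Max averaged 66.9 FPKM and lay below Mycn within each of the 6 libraries, although the ranges met: the lowest Mycn value, at 69.1 FPKM, was below the highest Max value, at 70.0. Among genes with a mean of at least 1 FPKM, Mycn was at percentile 89.1 by mean level, Max at 88.0 and Myc at 69.3.

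The antagonists were led by Mxi1, at 20.6 FPKM, and by Mga, at 17.3, whose ranges overlapped. Mnt, the most widely expressed antagonist of the family, followed at 11.04 FPKM, and its range met neither that of Mga above it nor that of Mycl below it. The 3 remaining MXD genes were low: Mxd4 averaged 4.54 FPKM, Mxd3 3.41 and Mxd1 1.44. Mycl and Mxd4 overlapped, as did Mxd4 and Mxd3, whereas Mxd3 lay above Mxd1 in every library. Together the 6 antagonists summed to 58.4 FPKM, of which Mxi1 gave 35.4%, Mga 29.6% and Mnt 18.9%. The members share little sequence with other genes: between 0% and 0.903% of a member's 50-nt words occurred in transcripts of other genes. These words come from annotated transcripts and were not used to obtain the deposited FPKM.

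**Figure D1:**
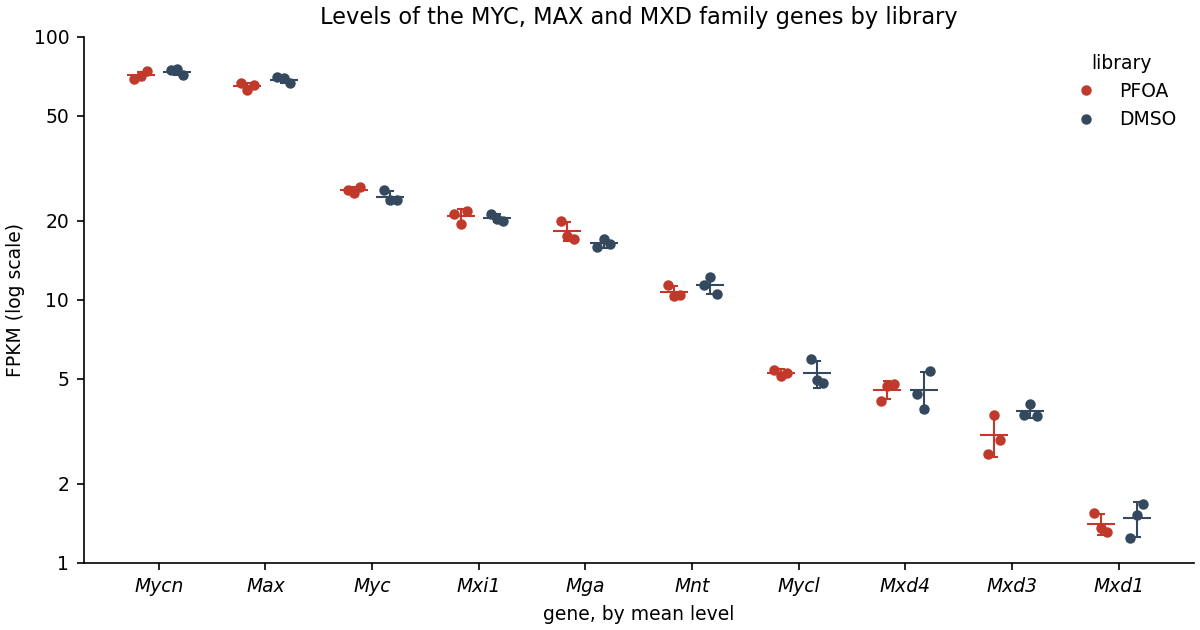
FPKM of the 10 genes on a log axis, ordered by mean level, with each library as a point and the mean with its SD as bars (n = 3 per group; PFOA left, DMSO right). Mycn and Max lie near 70 FPKM, Myc, Mxi1 and Mga between 15.8 and 26.8, and Mxd1 at 1.68 FPKM or below, with the groups overlapping for every gene.

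No member differed between PFOA and DMSO past the threshold. In limma on log2(FPKM + 1) over 11876 genes with a mean of at least 1 FPKM, 0 of the 10 members had a Benjamini-Hochberg adjusted p under 0.05, and their adjusted p-values ran between 0.217 and 0.968. Of all genes tested 0.00842% passed, which is the single gene Bri3, a small transmembrane protein gene that was lower in PFOA and is named here after its values were seen; with 1 library left out, the count over all genes ran between 0 and 91 lower (91 without PFOA 2, 39 without DMSO 3) and between 0 and 13 higher (13 without DMSO 3). At an unadjusted p under 0.05, 1 member was lower (Mxd3) and 0 were higher, against 12.5% and 8.56% of all genes. Those shares are 1489 genes lower and 1016 higher, which quantile normalization turned to 1114 lower and 1362 higher; there Mxd3 was lower and Mga higher at the unadjusted threshold, against 9.38% and 11.5% of all genes. With a trend on transcript length removed, described below, 0 members were lower and 1 was higher (Myc) at that threshold, against 7.03% and 6.39% of all genes, and Mxd3 no longer passed it. The PFOA and DMSO ranges overlapped for all 10 members, whereas they did not overlap for 27.2% of the genes tested. The signs were even, with 5 members higher and 5 lower, and the median log2 fold change of the members was −0.016, against −0.0065 over all genes. In these bulk libraries, fewer cells that express a gene and less RNA per cell cannot be told apart.

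Myc was 26.1, 25.4 and 26.8 FPKM in PFOA 1 to 3, against 26.1, 23.95 and 23.98 FPKM in DMSO 1 to 3. DMSO 1 matched PFOA 1 to the last decimal of the table and the other DMSO libraries lay below all PFOA libraries. The means were 26.1 ± 0.71 FPKM in PFOA and 24.7 ± 1.3 in DMSO (SD, n = 3 each), and the log2 fold change was 0.077 (SE 0.047; limma with Benjamini-Hochberg adjusted p = 0.375). The 95% interval ran between 0.979-fold and 1.14-fold on the FPKM + 1 scale. This interval includes a lower Myc transcript level in PFOA. How far it holds for treated cultures is also not known, because it is not known if the replicates were grown apart. The estimate also moved with the libraries used: without DMSO 2 the log2 fold change was 0.057 (SE 0.056). DMSO 1 carries much of the overlap: without it the log2 fold change was 0.12 (limma adjusted p = 0.347), against 0.058 without DMSO 3 (adjusted p = 0.564).

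Mycn leaned the other way on the deposited values. It was 69.1, 70.7 and 74.0 FPKM in PFOA and 74.5, 75.3 and 71.3 in DMSO. PFOA 3 sat among the DMSO libraries, and the means were 71.3 ± 2.5 FPKM in PFOA and 73.7 ± 2.1 in DMSO (log2 fold change −0.048, 95% interval 0.907-fold to 1.03-fold, limma adjusted p = 0.52). Under quantile normalization the log2 fold change of Mycn was −0.0012, and with the length trend removed it was −0.023. Mycl, the least abundant paralog, was 5.43, 5.13 and 5.29 FPKM in PFOA and 5.96, 4.96 and 4.83 in DMSO, where DMSO 1 was the highest of all 6 libraries and DMSO 3 the lowest. Its log2 fold change was 0.012 (SE 0.077, limma adjusted p = 0.943), and leaving out 1 library turned its sign in 3 of 6 cases.

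On the deposited values Myc and Mycn leaned apart, and the ratio between them did not overlap between the groups, although the values of each gene did. The Mycn level was 2.64, 2.79 and 2.77 times the Myc level in PFOA 1 to 3, against 2.85, 3.14 and 2.98 times in DMSO 1 to 3, so each PFOA ratio was below each DMSO ratio. Myc accordingly made up 26.0%, 25.1% and 25.2% of the MYC paralog level in PFOA and 24.5%, 23.0% and 24.0% in DMSO. The gap between the closest libraries, PFOA 2 and DMSO 1, is small beside the spread within DMSO. These ratios were chosen after the levels were seen, among 28 sums, shares and ratios of which 8 did not overlap between the groups, and they carry no test. Several of the 28 restate each other, and the groups did not overlap for 27.2% of all genes tested.

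Max, the partner through which the MYC proteins bind DNA, was 66.7, 62.9 and 65.5 FPKM in PFOA and 70.0, 69.6 and 66.5 in DMSO. PFOA 1 was just above DMSO 3, and the other PFOA libraries were below every DMSO library. The means were 65.0 ± 2.0 FPKM in PFOA and 68.7 ± 1.9 in DMSO (log2 fold change −0.078, SE 0.039, 95% interval 0.89-fold to 1.01-fold, limma adjusted p = 0.291). Set against the summed level of its 9 partners, Max was 0.413, 0.398 and 0.398 in PFOA and 0.426, 0.427 and 0.422 in DMSO, and each PFOA ratio was lower. Transcript length moved with this ratio: after the length trend described below was removed it was 0.438, 0.402 and 0.401 in PFOA and 0.413, 0.414 and 0.417 in DMSO, and the groups overlapped.

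**Figure D2:**
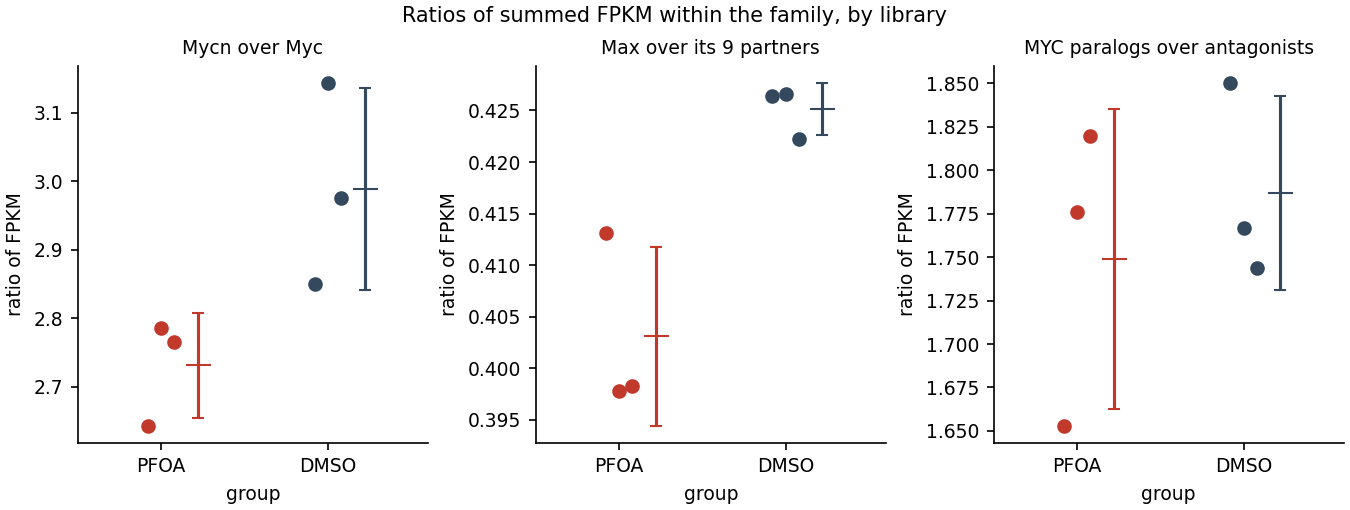
Ratios of FPKM in each library, PFOA left and DMSO right, for Mycn over Myc, Max over the sum of its partners, and the summed MYC paralogs over the summed antagonists; points are libraries, bars are mean and SD (n = 3 each), and the axes do not start at 0. The Mycn over Myc ratio is at most 2.79 in PFOA and at least 2.85 in DMSO, and MYC paralogs over antagonists overlaps on these deposited values.

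Among the antagonists, Mxd3 and Mga lay furthest from equal on the deposited values. Mxd3, an MXD gene known for its expression in proliferating cells, was 2.59, 3.65 and 2.93 FPKM in PFOA and 3.65, 4.02 and 3.62 in DMSO. PFOA 2 reached the level of DMSO 1, and PFOA 1 and 3 were below all DMSO libraries. The means were 3.06 ± 0.54 FPKM in PFOA and 3.76 ± 0.22 in DMSO, a log2 fold change of −0.24 (SE 0.098, limma adjusted p = 0.217). Its size rested on single libraries: it was −0.34 without PFOA 2 (adjusted p = 0.105) and −0.16 without PFOA 1 (adjusted p = 0.471), by limma.

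Mga was 19.9, 17.5 and 17.1 FPKM in PFOA and 15.8, 17.1 and 16.3 in DMSO. PFOA 1 stood above the rest, and PFOA 3 equalled DMSO 2. The means were 18.2 ± 1.5 FPKM in PFOA and 16.4 ± 0.64 in DMSO (log2 fold change 0.14, SE 0.062, limma adjusted p = 0.25). Without PFOA 1 the log2 fold change was 0.073 (limma adjusted p = 0.529). As a share of the antagonist level, Mga was 32.7%, 30.8% and 29.3% in PFOA and 27.4%, 29.0% and 28.5% in DMSO, each PFOA share above each DMSO share. With the length trend removed the shares overlapped, at 30.3%, 30.1% and 29.3% in PFOA and 29.0%, 30.3% and 28.8% in DMSO.

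Mnt was 11.4, 10.3 and 10.4 FPKM in PFOA and 11.4, 12.2 and 10.5 in DMSO, with a log2 fold change of −0.077 (SE 0.065, limma adjusted p = 0.519). With the length trend removed it was −0.11 (limma adjusted p = 0.44), after Mxd3 the furthest from 0 among the antagonists. DMSO 2 was the high library, PFOA 2 and 3 were just below every DMSO library, and PFOA 1 lay between DMSO 1 and 2. Mxi1, the leading MXD gene, was 21.3, 19.4 and 21.8 FPKM in PFOA and 21.2, 20.3 and 19.9 in DMSO, and both its lowest and its highest value were PFOA libraries (log2 fold change 0.023, limma adjusted p = 0.833). Mxd4 ran between 4.14 and 4.77 FPKM in PFOA and between 3.83 and 5.38 in DMSO, and Mxd1 between 1.31 and 1.55 in PFOA and between 1.24 and 1.68 in DMSO. In both of these low genes the DMSO libraries spanned the PFOA libraries.

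The sum over activators and the sum over antagonists overlapped between the groups as deposited. MYC paralogs summed to 102.6 ± 3.0 FPKM in PFOA and 103.6 ± 3.3 in DMSO, and the antagonists to 58.7 ± 2.0 in PFOA and 58.0 ± 0.84 in DMSO (SD, n = 3 each). The MYC paralogs were 1.65, 1.78 and 1.82 times the antagonists in PFOA and 1.85, 1.77 and 1.74 times in DMSO. Without PFOA 1, the lowest library, the difference of the mean ratios, PFOA minus DMSO, was 0.011 in place of −0.038, well inside the spread within a group. With the length trend removed the ratio did separate the groups, at 1.80, 1.81 and 1.83 in PFOA and 1.76, 1.69 and 1.72 in DMSO, so the direction of this difference turns with that choice. The ratio on that scale is not among the 28 quantities above and carries no test. No share of all genes that do not overlap is given for that scale.

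**Figure D3:**
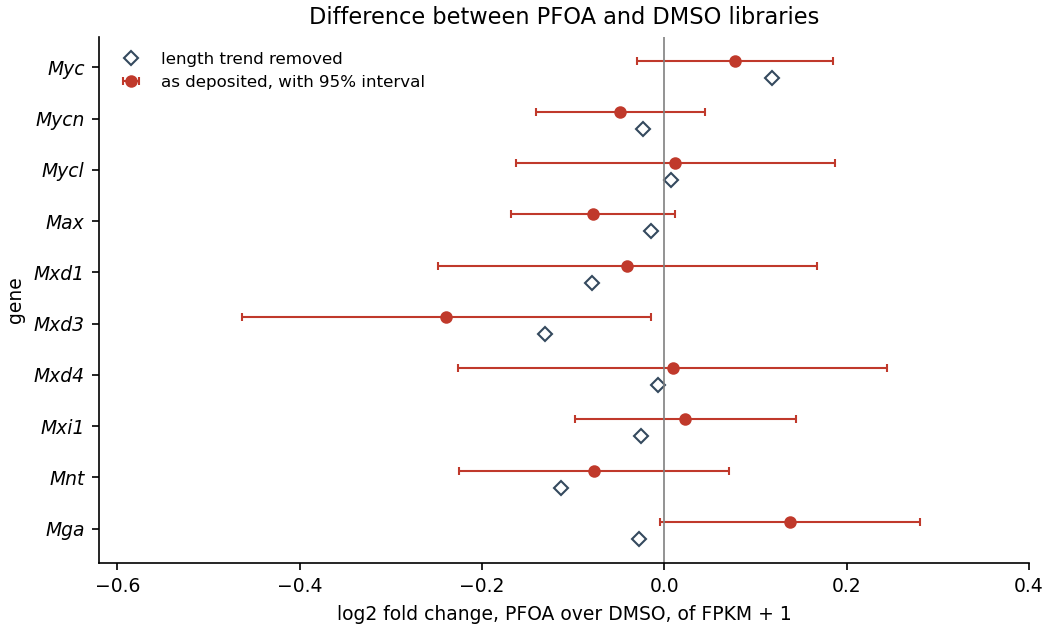
Log2 fold change of FPKM + 1, PFOA over DMSO, for each gene as deposited with its 95% limma interval (filled, n = 3 libraries each) and with the length trend removed (open, no interval drawn). The Mxd3 interval, −0.46 to −0.015, is the only one of the 10 that leaves out 0, and Mga passes from 0.14 to −0.027 once the trend is removed.

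Transcript length moved with the groups across the whole table, and the members followed it in part. By longest coding transcript, the median log2 fold change was −0.16 for 692 genes under 1000 nt and 0.13 for 593 genes at 8000 nt or above. Length and fold change had a Spearman's rho of 0.598 across genes, which do not count as independent replicates. Mga, with the longest transcript of the family at 13931 nt, had a log2 fold change of 0.14 beside its class median of 0.13. Mxd3, the shortest at 1327 nt, and Max, at 1942 nt, had −0.24 and −0.078 beside a class median of −0.091.

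Myc lay above its length class by 0.09, whereas Mxd3, Mnt and Mxd1 lay further from theirs, on the lower side. The Myc transcript of 2338 nt falls in the class from 2000 to under 4000 nt, whose median was −0.013, and Mycn (2674 nt) falls in the same class. With a trend on length removed from each library, Myc was 26.9, 25.6 and 26.9 FPKM in PFOA and 25.5, 23.5 and 23.9 in DMSO. Each PFOA value was then above each DMSO value, PFOA 2 by the least, and the log2 fold change of 0.12 passed the unadjusted threshold but not the adjusted one over all genes (limma adjusted p = 0.304). The Mycn over Myc ratio stayed apart on that scale, at 2.61, 2.78 and 2.76 in PFOA and 2.87, 3.17 and 2.98 in DMSO. The 27.2% of genes whose groups did not overlap belongs to the deposited values, and no such share is given for that scale. Mga moved to −0.027 (limma adjusted p = 0.82), Max to −0.015 (adjusted p = 0.899) and Mxd3 to −0.13 (adjusted p = 0.515).

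**Figure D4:**
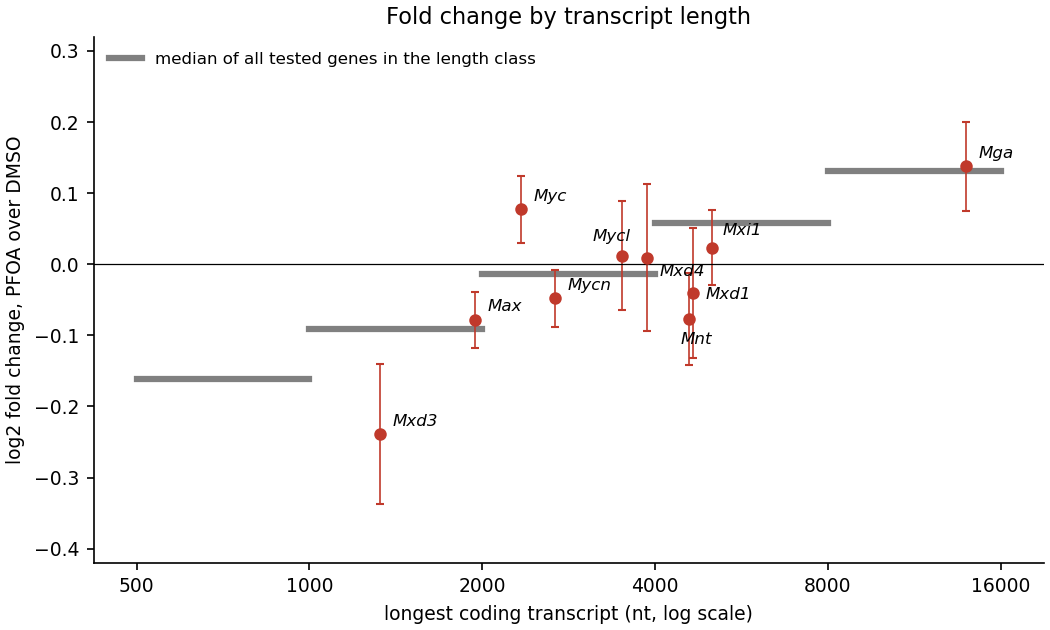
Log2 fold change, PFOA over DMSO, against the longest coding transcript of each gene (log axis); red points are the 10 genes with their SE, and grey bars are the medians of all tested genes in 5 length classes, the outer classes drawn from 500 and to 16000 nt. Mga lies on its class median, Mxd3 lies below its class by 0.15 and Myc lies above its class by 0.09. Mnt (−0.13 from its class median) and Mxd1 (−0.098) also lie further from theirs than Myc does.

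The partners and regulators of the family were read from the same fit, in 7 lists that hold 64 genes, all of them tested. None passed in limma at an adjusted p under 0.05 (0 higher, 0 lower). At an unadjusted p under 0.05, 10 were higher and 5 lower, that is 15.6% and 7.81% of the 64, against 8.56% and 12.5% of all genes. The median log2 fold change of the 64 was 0.0068, against −0.0065 over all genes, and 0.013 with the length trend removed. These counts move with the scaling: with the length trend removed 3 were higher (Sin3a, Ncor1 and Huwe1) and 1 lower (Cnbp), against 6.39% and 7.03% of all genes, and under quantile normalization 12 were higher and 1 lower (Sap30), against 11.5% and 9.38%. The groups did not overlap for 28.1% of the 64, against 27.2% of all genes tested. In each list the values below are those of the 2 genes with the smallest p.

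MLX, MondoA and ChREBP form a parallel branch that senses glucose and pairs through MLX in place of MAX. The MondoA gene Mlxip was 11.2, 9.76 and 9.38 FPKM in PFOA and 8.91, 8.96 and 8.67 in DMSO, so the groups did not overlap and PFOA 1 was highest (log2 fold change 0.17, limma adjusted p = 0.2). The ChREBP gene Mlxipl averaged 2.18 ± 0.061 FPKM in PFOA and 2.04 ± 0.26 in DMSO. Of the 13 coactivators that MYC recruits, 3 were higher and 1 lower at the unadjusted threshold (23.1% and 7.69%), against 8.56% and 12.5% of all genes. With the length trend removed, 0 were higher and 0 lower, against 6.39% and 7.03% of all genes. Ep400, a remodelling ATPase of the TIP60 complex, averaged 24.7 ± 2.6 FPKM in PFOA and 21.7 ± 0.58 in DMSO, and the actin-related subunit gene Actl6a 119.8 ± 3.5 in PFOA and 129.0 ± 1.1 in DMSO (limma adjusted p = 0.193 and 0.166). With the length trend removed the log2 fold changes shrank to 0.079 in place of 0.17 for Mlxip, 0.043 in place of 0.18 for Ep400 and −0.047 in place of −0.11 for Actl6a.

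The corepressors that MXD proteins and MNT bring to DNA split in direction: of 11 genes, 2 were higher and 2 lower at the unadjusted threshold. These are 18.2% each, against 8.56% and 12.5% of all genes. With the length trend removed, 2 were higher (Sin3a and Ncor1) and 0 lower, against 6.39% and 7.03% of all genes. Ncor1, a scaffold for histone deacetylases, was 57.3, 52.5 and 51.7 FPKM in PFOA and 45.4, 44.4 and 47.7 in DMSO (log2 fold change 0.23, limma adjusted p = 0.118). The SIN3 complex subunit gene Sap30 was 54.9, 57.6 and 53.1 FPKM in PFOA and 62.7, 66.2 and 64.6 in DMSO (−0.22, limma adjusted p = 0.11). Neither gene overlapped between the groups, but both were picked by smallest p, and 27.2% of all genes tested did not overlap. Their transcripts stand at opposite ends, 9037 nt for Ncor1 and 1178 nt for Sap30, and removing the trend on length left log2 fold changes of 0.11 and −0.10.

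In the PRC1.6 complex that holds MGA, 0 of 10 genes were higher and 1 lower at the unadjusted threshold, against 8.56% and 12.5% of all genes. With the length trend removed, 0 were higher and 0 lower, against 6.39% and 7.03% of all genes. The heterochromatin protein gene Cbx3 averaged 138.2 ± 3.0 FPKM in PFOA and 150.9 ± 4.3 in DMSO, and Pcgf6, the subunit that sets this complex apart from other polycomb complexes, 49.6 ± 1.4 in PFOA and 52.1 ± 1.9 in DMSO (limma adjusted p = 0.143 and 0.367). The log2 fold change of Cbx3 was −0.13, and −0.059 with the length trend removed. Zbtb17, which encodes MIZ1, the partner through which MYC represses genes, averaged 12.7 ± 0.90 FPKM in PFOA and 13.2 ± 0.47 in DMSO.

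Of 15 genes that act on MYC protein turnover, 3 were higher and 0 lower in limma at the unadjusted threshold. These are 20.0% and 0%, against 8.56% and 12.5% of all genes. With the length trend removed, 1 was higher (Huwe1) and 0 lower, against 6.39% and 7.03% of all genes. Huwe1, a very large ubiquitin ligase with MYC proteins among its substrates, averaged 81.0 ± 7.6 FPKM in PFOA and 67.8 ± 2.8 in DMSO, and its log2 fold change of 0.25 (SE 0.065, limma adjusted p = 0.13) was 0.079 with the length trend removed. Gsk3b, a kinase whose phosphorylation of MYC marks it for degradation, was 13.9, 13.5 and 12.9 FPKM in PFOA and 12.3, 12.1 and 12.1 in DMSO. All PFOA libraries lay above the tightly grouped DMSO libraries, with a log2 fold change of 0.13 (SE 0.046, limma adjusted p = 0.173) that was 0.022 with the length trend removed. Among the 11 regulators of Myc transcription and mRNA stability, Igf2bp1, which binds and stabilises Myc mRNA, averaged 69.7 ± 1.4 in PFOA and 64.4 ± 1.9 in DMSO, and Cnbp, a nucleic acid binding protein known from human cells to act on the MYC promoter, 201.9 ± 5.1 in PFOA and 220.4 ± 6.2 in DMSO (limma adjusted p = 0.161 and 0.149). With the length trend removed the log2 fold change of Igf2bp1 was 0.0046 in place of 0.11, and that of Cnbp −0.077 in place of −0.13.

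**Figure D5:**
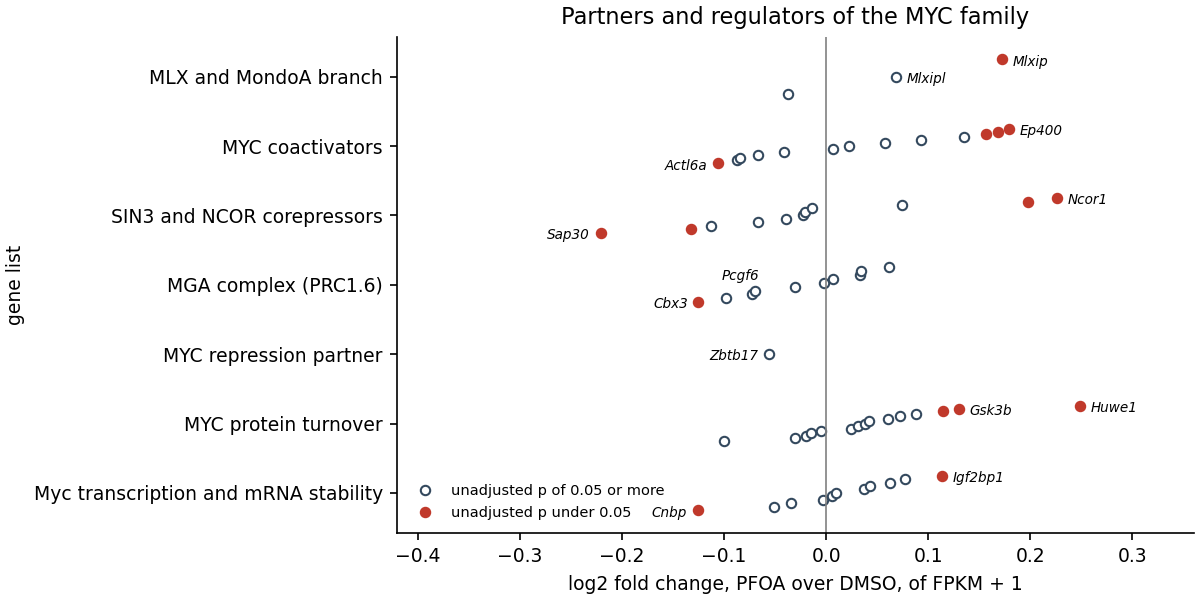
Log2 fold change of FPKM + 1, PFOA over DMSO, for the 64 partner and regulator genes by list, 1 point per gene; filled points have an unadjusted limma p under 0.05, and the named genes are the 2 with the smallest p in each list. Sap30 lies furthest to the left, at −0.22, and Huwe1 furthest to the right, at 0.25.

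The genes most like Myc over the 6 libraries, by Pearson's r of log2(FPKM + 1), were Smarcal1 (0.998), Oxsr1 (0.993), Ltbp1 (0.99), Rabgap1 (0.986) and Tmem63b (0.984). Smarcal1, an annealing helicase of stalled replication forks, was highest in PFOA 3, at 15.8 FPKM, and in DMSO it was 15.4, 14.2 and 14.3, with the same high DMSO 1 as Myc. The points share libraries and depth, and 86 of the tested genes had an r above 0.9 with Myc. Mycn was most like Elob (0.994), an elongin subunit gene, and the predicted gene Gm6109 (0.993). Max was most like Gtf2f1 (0.995), a subunit of the general factor TFIIF, which was 106.6, 103.7 and 105.9 FPKM in PFOA and 108.9, 108.7 and 106.8 in DMSO. Mga was most like Palb2 (0.994), a homologous recombination gene, and 453 genes had an r above 0.9 with it.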

How the data were processed

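Per the labels' protocols, polyadenylated RNA was selected from 1.2 µg of total RNA, whose integrity number exceeded 8.0, and read on a BGISEQ-500. The authors deposited FPKM to 2 decimals, 1 column per library. HISAT2 2.0.4, Bowtie2 2.2.5 and GRCm39 are listed in the submitters' processing notes, without their roles; the counting tool and annotation are not known from the labels used here. Of 15057 low values, 21.2% lay within 0.15 of a whole multiple of the gene's smallest value, so whole reads were not recovered, no count test was run and the precision that depth gives is unknown.

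Groups came from the library titles. PFOA was compared with DMSO on log2(FPKM + 1), which understates the change of low genes, for genes with a mean of at least 1 FPKM (6512 left out; all 10 members kept), with limma 3.58.1 under R 4.3.3 (two-sided, prior variance with an intensity trend), called at a Benjamini-Hochberg adjusted p under 0.05. Exact two-sided permutation tests of each member's mean FPKM cannot go below p = 0.1 with 3 against 3 libraries, and the smallest found was 0.2. The fit was tested on simulated data.

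Lengths (longest coding transcript) and 50-nt words came from GENCODE M21; 97.1% of tested genes had a length. The length trend was a loess fit, span 0.5, of each library's deviation on log2 length. The alternatives were other normalizations, pseudocount, filters, variance settings, weights, the replicate block and libraries left out. All 10 members are named, with the 2 genes of smallest p in each partner list and the genes most like Myc (5) and other members (2 each where described). 1 gene of the partner lists is not reported here and is left out of their counts. The members and lists were chosen with earlier results of these data known.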

Additional observations from a re-analysis of the deposited data

How the results depend on the processing

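In limma, 0 members passed the adjusted threshold under any of the 16 alternatives tried, with adjusted p-values of at least 0.1047, and 143 of 157 member values kept their sign. The sign turned with the length trend removed for Mga (−0.027), Mxi1 (−0.025) and Mxd4 (−0.0071), and without DMSO 1 and 2 for Mxd4 (−0.21) and Mnt (0.022); that fit has DMSO 3 as its lone control and takes its spread from the PFOA libraries. With 1 library left out, log2 fold changes ran between −0.036 and 0.092 for Mycl, −0.11 and 0.017 for Mxd1, −0.085 and 0.12 for Mxd4 and −0.0099 and 0.072 for Mxi1. The log2 fold change of Myc stayed between 0.057 and 0.12. Low-abundance genes limit what could be seen: the SE was 0.091 for Mxd1 and 0.103 for Mxd4, against 0.039 for Max.

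Over all genes, 1 was called lower and 0 higher. The count called lower was 0 with every expressed gene tested, with no variance trend, with the length trend removed and without DMSO 1 and 2, and 2 with array weights. With 1 library left out it ran between 0 and 91 genes lower and between 0 and 13 higher: 91 lower without PFOA 2, and 39 lower and 13 higher without DMSO 3. At an unadjusted p under 0.05 quantile normalization gave 1362 higher and 1114 lower in place of 1016 and 1489. It gave a median log2 fold change over all genes of 0.00998 in place of −0.0065. The log2 fold change of Max was then −0.030 in place of −0.078, that of Mycn −0.0012 in place of −0.048, and that of Myc 0.089 in place of 0.077. Among the 64 partner genes the unadjusted counts were 10 higher and 5 lower, 12 and 1 under quantile normalization, and 3 and 1 with the length trend removed, which also left 759 higher and 835 lower over all genes. Same-numbered PFOA and DMSO libraries correlated at −0.107, −0.0095 and −0.138 in their deviations from the group means. These values show no pairing, but with 3 libraries per group they cannot establish that there was none. With the replicate block 0 genes were called lower and 0 members were called.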
